A study of Mus musculus with 2 samples.

Results

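Replication-coupled chromatin and DNA methylation factors are mainly the enzymes, readers, remodellers and histone chaperones that rebuild chromatin behind the replication fork. The set used here also holds genes of a DNA-bending protein, Hmgb2, and of a histone variant, H2afz. The genes described here are Dnmt1, Uhrf1, Ezh2, Hells, Suv39h1, Chaf1a, Chaf1b, Asf1b, Hmgb2 and H2afz, taken by symbol from the table of loci, and all 10 were found, each on 1 locus, among 33224 gene symbols. The samples were livers of male C57BL/6 mice that were either wild type (WT) or PPARβ-null (KO), labelled as 4 months old and collected 48 hr after partial hepatectomy (PH). The hour is not among the labels and was taken from the text on the study, where the ages given vary. Both groups had the surgery and free access to food, and no unoperated liver entered the comparison. Each genotype was sequenced as 1 library, how many mice stand behind a library is not stated, and the labels describe the KO allele no further. No value below therefore carries an error between mice, and no p-value is given. The comparison asks how the mRNA of these factors differed at 48 hr between regenerating livers with and without PPARβ. The study reported that proliferation was delayed in KO livers and reached its peak later than in WT. With only this hour sequenced, a later wave and a lasting difference cannot be told apart.

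After each round of DNA replication the new strand lacks methyl groups, and new nucleosomes have to be added to the parental ones. Uhrf1 binds hemimethylated DNA and recruits Dnmt1, the maintenance methyltransferase, and Hells is an SNF2-type remodeller that opens chromatin for DNA methylation. Asf1b hands new histones H3 and H4 to CAF-1, the complex of Chaf1a, Chaf1b and Rbbp4 that is tethered to Pcna and deposits them. Ezh2 and Suv39h1 methylate histone H3 at lysine 27 and lysine 9 and so restore repressive marks, Hmgb2 is a DNA-bending high mobility group protein, and H2afz encodes the histone variant H2A.Z. Hepatocytes of the resting adult liver are mostly outside the cell cycle, and after PH they enter S phase in a wave, when such genes are usually transcribed under the control of E2f factors and of the MuvB complexes.

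Promoter sequences are given first, because they do not depend on the expression values. The members were chosen as genes of replication, which are usually under E2f and MuvB control. A high share with such motifs is therefore built into the choice and is no independent support. RefSeq promoters on GRCm38.p6, from 250 bases before to 50 after an annotated start, were at hand for all 10 members and for all 9 of their paralogs, with H2afz and H2afv listed there as H2az1 and H2az2. An E2F motif, spelled TTTCCCGC, TTTCGCGC, TTTGCCGC or TTTGGCGC and searched on both strands, was found in 5 of the 10 members, namely Dnmt1, Uhrf1, Ezh2, Hells and Suv39h1. Of all 32851 promoters of the same length 2.26% held it, as did 2.6% of the 27025 genes when any start of a gene was counted. None of the 9 paralogs had it in this window. In the stretches below the motif is in capitals and the letters run along the strand of the gene, so that a motif on the other strand appears as its reverse complement. Positions are those of the leftmost motif base relative to the annotated start. One match is shown per gene so that they can be compared, and Dnmt1 held a second at position 34 of the same start.
Hells, position -62, chr19:38930917-38930946, plus strand: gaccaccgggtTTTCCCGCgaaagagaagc
Uhrf1, position -185 of start 2, chr17:56304117-56304146, plus strand: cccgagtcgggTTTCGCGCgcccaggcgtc
Ezh2, position 4, chr6:47595009-47595038, minus strand: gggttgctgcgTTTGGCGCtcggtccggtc
Dnmt1, position -219 of start 3, chr9:20952824-20952853, minus strand: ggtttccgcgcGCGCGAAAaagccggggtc
Suv39h1, position -64 of start 2, chrX:8074407-8074436, minus strand: ggaaggccggcGCGGCAAAcgtgggggccg

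Asf1b and Hmgb2 lacked that motif and held a CHR element, the site known from promoters bound by the MuvB complexes, spelled here TTTGAA or TTCGAA and searched on both strands. A CHR element was found in 3 of the 10 members, Dnmt1 being the other, and in 4 of the 9 paralogs, beside 19.2% of all promoters and 21.7% of all genes. In Dnmt1 it lay at start 1, a different promoter from start 3 with the E2F motif. The CCAAT box, searched on both strands, was found in 8 members and 4 paralogs, beside 37.4% of all promoters and 41.1% of all genes. Chaf1b had none of these letters in its window. Such a match describes a sequence and does not show that a factor binds there.
Asf1b, CHR element at position -14, chr8:83955668-83955697, plus strand: cggagccggctaTTTGAAgggagcgcgctg
Hmgb2, CHR element at position -30, chr8:57511801-57511830, plus strand: ggactctccgggTTTGAAtaatcctccaca
The 250 bases before the start of Hmgb2 (chr8:57511593-57511842, plus strand) are given in full, because they hold 4 CCAAT boxes and 2 CHR elements, all in capitals.
Hmgb2 upstream: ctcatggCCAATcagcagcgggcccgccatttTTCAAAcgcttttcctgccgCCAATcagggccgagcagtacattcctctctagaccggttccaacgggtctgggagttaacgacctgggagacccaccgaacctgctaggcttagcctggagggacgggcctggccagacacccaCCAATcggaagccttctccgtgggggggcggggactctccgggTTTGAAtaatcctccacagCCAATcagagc

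The expression values are FPKM, fragments scaled to the length of the transcript and to the size of the library, so levels of different genes can be compared within a library. From the lowest values of single-exon genes, an FPKM of 1 on a transcript of 1 kb was estimated to rest on 53.0 fragments for WT and on 55.5 for KO. For the 10 members this gave between 500 and 5530 fragments in WT and between 22.1 and 1145 in KO. The 95% intervals below are exact binomial (Clopper-Pearson) intervals of the ratio from such estimated fragments and cover counting error only. Ppard, the targeted gene, measured 2.67 FPKM in WT and 2.42 FPKM in KO, a ratio of 1.10 (95% counting interval 0.966 to 1.26). A value over a whole gene does not show whether part of it is deleted, so it is no check of the genotype. Hepatocyte markers such as Apoa1, at 3061 FPKM in WT and 3503 FPKM in KO, were abundant in both, as the label of liver requires. Across all 11025 genes with a mean FPKM of 1 or more the median log2 KO/WT was -0.24, a WT/KO ratio of 1.18, and each ratio below is to be read against that shift.

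Uhrf1, Dnmt1 and Hells, the genes of DNA methylation maintenance, were lower in KO, by widely different amounts. In bulk tissue, here and in all values below, fewer cells that carry an mRNA and less of it per cell cannot be told apart. Uhrf1 (chromosome 17, 56442735 to 56462909 on NCBI37, as for all loci below) measured 9.52 FPKM in WT and 0.237 FPKM in KO. It had the largest ratio of the members, 40.2-fold lower in KO (95% counting interval 30.2 to 55.1). That interval overlaps the one of Asf1b, 15.5 to 38.3. Dnmt1, the enzyme that Uhrf1 recruits (chromosome 9, 20711650 to 20757329), measured 5.65 FPKM in WT and 1.61 FPKM in KO, and was 3.50-fold lower (95% counting interval 3.16 to 3.89). The ratio of Dnmt1 was the smallest of the 10 members. By listed ratio, the reader of hemimethylated DNA and its partner enzyme were thus at opposite ends of the set. In WT the mRNA of Uhrf1 stood above that of Dnmt1, and in KO the order was turned. Hells (chromosome 19, 39005405 to 39045941) measured 5.16 FPKM in WT and 0.287 FPKM in KO, 18.0-fold lower (95% counting interval 14.5 to 22.3). The level of Hells was thus close to that of Dnmt1 in WT and clearly under it in KO.

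**Figure D1:**
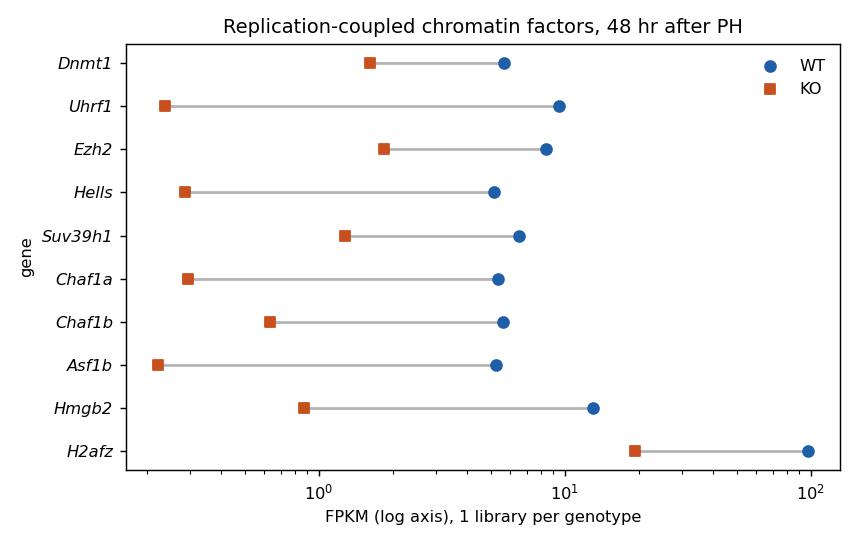
FPKM of the 10 genes on a log axis, with 1 blue circle for the WT library and 1 orange square for the KO library in each row. Every KO value lies left of its WT value, from 0.223 for Asf1b to 19.3 for H2afz in KO and from 5.16 for Hells to 97.5 for H2afz in WT.

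The histone methyltransferases were lower in KO by amounts close to each other. Ezh2, the catalytic subunit of Polycomb repressive complex 2 (chromosome 6, 47480273 to 47545340), measured 8.37 FPKM in WT and 1.84 FPKM in KO, 4.56-fold lower (95% counting interval 3.99 to 5.22). Suv39h1, which trimethylates lysine 9 of histone H3 in heterochromatin (chromosome X, 7626298 to 7651886), measured 6.50 FPKM in WT and 1.28 FPKM in KO, 5.07-fold lower (95% counting interval 4.38 to 5.87). The intervals of these 2 ratios overlap. The Suv39h1 locus begins 11999 bases outside the annotated gene and holds Gm14820 as well, which has a row of its own at 0.227 FPKM in WT and 0 FPKM in KO. At the Ezh2 locus the annotation also lists Gm17629.

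Among the chaperones of new histones the ratios were larger. Asf1b (chromosome 8, 86479406 to 86494096) measured 5.27 FPKM in WT and 0.223 FPKM in KO, 23.6-fold lower (95% counting interval 15.5 to 38.3). Its KO value was the lowest of all members and rested on about 22.1 fragments. Chaf1a, the large subunit of CAF-1 (chromosome 17, 56179827 to 56214451), measured 5.36 FPKM in WT and 0.294 FPKM in KO, 18.3-fold lower (95% counting interval 13.7 to 25.3). Chaf1b, the middle subunit (chromosome 16, 93884146 to 93906360), measured 5.62 FPKM in WT and 0.636 FPKM in KO, 8.84-fold lower (95% counting interval 7.16 to 11.0). The subunits stood at nearly equal levels in WT, with a Chaf1a/Chaf1b ratio of 0.955, whereas in KO that ratio was 0.462. The intervals of the 2 ratios do not overlap. The Chaf1a locus runs 7478 bases past the annotated gene into Ubxn6, a gene at 13.2 FPKM in WT and 13.5 FPKM in KO, and 1.79% of the 100-base windows of the Chaf1a transcript also lie in exons of Ubxn6. How much of the Chaf1a value in KO came from Ubxn6 reads was not tested.

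Rbbp4, the small subunit that CAF-1 shares with Polycomb and deacetylase complexes, did not follow its partners. It measured 48.7 FPKM in WT and 36.7 FPKM in KO, 1.32-fold lower, and it was the more abundant mRNA in either library. Chaf1a amounted to 9.93% of the summed FPKM of Chaf1a and Rbbp4 in WT and to 0.793% in KO. For Chaf1b with Rbbp4 these shares were 10.4% and 1.70%. The locus of Rbbp4 also holds Gm17525 and Sync, and 29.7% of its 100-base windows occur in exons of these genes.

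Hmgb2 and H2afz, the most abundant members in WT, have copies elsewhere in the genome, which bears on their values. Hmgb2 (chromosome 8, 59990070 to 59994796) measured 13.1 FPKM in WT and 0.871 FPKM in KO, 15.0-fold lower (95% counting interval 12.6 to 18.1). Of its 100-base windows 15.8% were found letter for letter in 5 pseudogenes, which were themselves listed 8.06-fold to 12.2-fold lower in KO. Summed with these copies Hmgb2 was 12.1-fold lower. H2afz (chromosome 3, 137527451 to 137529884) measured 97.5 FPKM in WT and 19.3 FPKM in KO, 5.05-fold lower (95% counting interval 4.74 to 5.39). For H2afz 77.4% of the windows occur in other annotated genes. Among these the pseudogene Gm8203 was listed at 63.2 FPKM in WT and 11.8 in KO, 5.37-fold lower, and the sum of H2afz and its 3 copies was 5.16-fold lower. The ratio with the copies was thus close to that without them, while the level of H2afz itself is uncertain. Other ways of dividing the reads were not tested. Uhrf1 shared 7.05% of its windows with the pseudogene Gm5648, listed at 0.281 FPKM in WT and 0 in KO. Dnmt1, Ezh2, Hells, Chaf1b and Asf1b shared no such window.

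As a group, all 10 members were at least 2-fold lower in KO, where 8.91% of all genes with a mean FPKM of 1 or more were. At least 4-fold lower were 9 of the 10, all but Dnmt1, beside 2.97% of all genes, and at least 8-fold lower were 6, namely Uhrf1, Asf1b, Chaf1a, Hells, Hmgb2 and Chaf1b, beside 1.74%. No member was higher in KO, where 1.75% of all genes were at least 2-fold higher. Among the 4869 genes with a mean FPKM from 2 to 10, the range of all members but H2afz, 9.18% were at least 2-fold lower, a range chosen after the values were seen. On the log2 scale, with 0.1 FPKM added to each value, the median of the members was -3.36 (range -4.84 to -1.75), beside -0.24 for all genes. When all 11025 genes were ordered from the most lower to the most higher in KO, Uhrf1 took place 55, Asf1b place 106 and Dnmt1, the last of the members, place 371. These are genes that are known to be transcribed together, so the 10 values are not independent replicates of 1 difference. The members were also chosen with earlier results of these data known. Their counts beside the shares of all genes are therefore a description and no test.

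**Figure D2:**
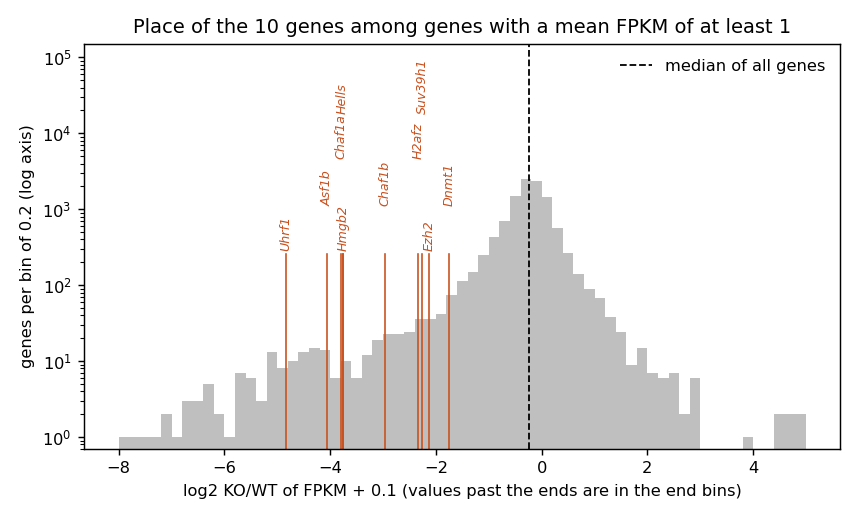
Histogram of log2 KO/WT over genes with a mean FPKM of 1 or more, on a log axis of gene counts, with orange lines at the 10 members and a dashed line at the median of all genes, -0.24. The members lie in the left tail, from -4.84 for Uhrf1 to -1.75 for Dnmt1.

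The members were alike in level in WT and spread out in KO. Without H2afz, the 9 others had WT levels between 5.16 and 13.1 FPKM, with the highest 2.53-fold above the lowest. In KO these 9 genes lay between 0.223 and 1.84 FPKM, and the highest was 8.23-fold above the lowest. In WT the order by level was H2afz, Hmgb2, Uhrf1, Ezh2, Suv39h1, Dnmt1, Chaf1b, Chaf1a, Asf1b and Hells. The last 5 of that order lay within 5.16 and 5.65 FPKM. In KO the order was H2afz, Ezh2, Dnmt1, Suv39h1, Hmgb2, Chaf1b, Chaf1a, Hells, Uhrf1 and Asf1b, and the last 4 lay within 0.223 and 0.294 FPKM. Uhrf1 thus moved from the third place to the ninth, and Dnmt1 from the sixth to the third. Among all expressed genes H2afz ranked 733 by level in WT and 2725 in KO, and Uhrf1 ranked 5093 and 10923.

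Each member with a paralog was set beside it, since the paralog does related work. In several of these families the paralog is known to be less tied to S phase. In all 9 pairs the member was lower in KO by more than its paralog, a comparison within each library that a scaling of the whole library leaves nearly as it is. With the members at places 55 to 371 of 11025 from the most lower, nearly any gene beside them would give that order. The count is therefore a description and no test, and Dnmt1 and Hmgb2 enter it more than once. The difference of the log2 KO/WT values ranged from -3.92 for Uhrf1 with Uhrf2 to -0.94 for Suv39h1 with Suv39h2, with a median of -2.07. The largest WT/KO ratio of any paralog was 2.83, that of Suv39h2. The member was the more abundant mRNA of the pair in 7 of the 9 pairs in WT and in 3 in KO.

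**Figure D3:**
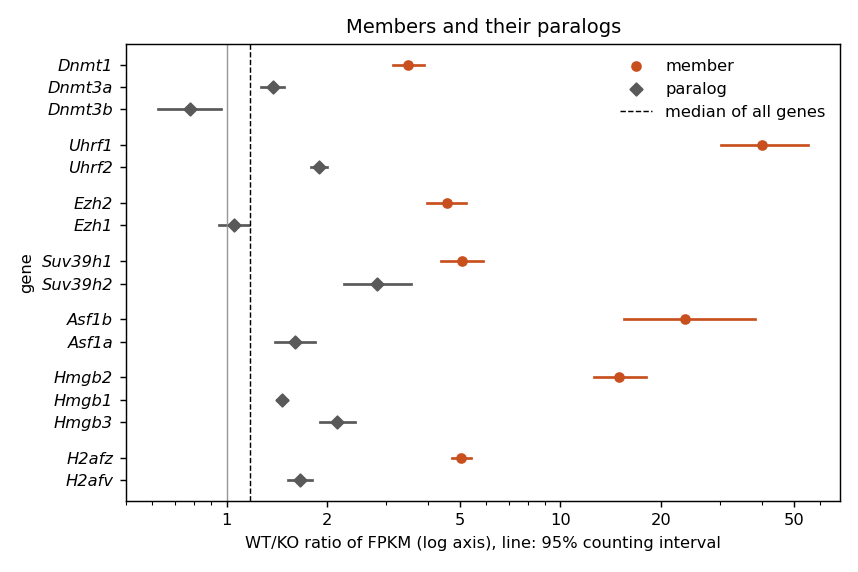
WT/KO ratio of FPKM on a log axis for members (orange circles) and paralogs (grey diamonds), with lines for 95% counting intervals, a solid line at 1 and a dashed line at the median ratio of all genes, 1.18. Every member lies to the right of its paralogs, with Suv39h1 (5.07) and Suv39h2 (2.83) the nearest pair.

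For Ezh2 with Ezh1 and for Dnmt1 with Dnmt3a the order within the pair was turned. Ezh1, the paralog of Ezh2 that predominates in non-dividing tissue, measured 3.36 FPKM in WT and 3.20 FPKM in KO, which is a ratio of 1.05. Ezh2 therefore stood 2.49-fold above Ezh1 in WT, and Ezh1 1.74-fold above Ezh2 in KO. Dnmt3a, a de novo DNA methyltransferase, measured 2.96 FPKM in WT and 2.15 FPKM in KO. Dnmt1 stood 1.91-fold above it in WT, and Dnmt3a 1.33-fold above Dnmt1 in KO. Dnmt3b, the other de novo enzyme, was the only paralog listed higher in KO, at 0.655 FPKM in WT and 0.842 FPKM in KO, though Ezh1 would be higher too once ratios are centred on the median ratio of all genes. Suv39h2 measured 1.22 FPKM in WT and 0.432 FPKM in KO and remained under Suv39h1 in both libraries, and its locus reaches into Dclre1c.

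The pairs of Asf1b, Uhrf1, Hmgb2 and H2afz are given by the share of the member in the summed FPKM. Asf1a, which serves histone exchange outside replication as well, measured 4.63 FPKM in WT and 2.88 FPKM in KO. Asf1b made up 53.2% of the pair in WT and 7.18% in KO. The locus of Asf1a is wider than the gene and overlaps Mcm9, so its level is uncertain. Uhrf2 measured 17.5 FPKM in WT and 9.24 FPKM in KO, and Uhrf1 made up 35.3% of the pair in WT and 2.50% in KO. Hmgb1 measured 51.8 FPKM in WT and 35.4 FPKM in KO, and the share of Hmgb2 in that pair was 20.1% in WT and 2.40% in KO. Hmgb3 measured 9.38 FPKM in WT and 4.37 FPKM in KO, and beside it the share of Hmgb2 was 58.2% and 16.6%. Hmgb1 and Hmgb3 share 21.3% and 52.9% of their 100-base windows with other annotated genes, so their levels are uncertain. H2afv, which encodes the near-identical H2A.Z isoform, measured 16.8 FPKM in WT and 10.2 FPKM in KO. H2afz kept the larger share of its pair, 85.3% in WT and 65.5% in KO.

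**Figure D4:**
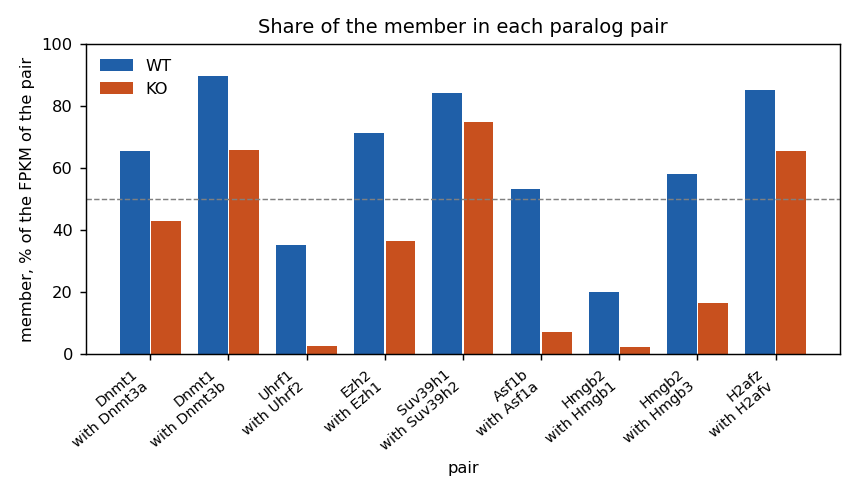
Share of the member in the summed FPKM of each paralog pair, in percent, with blue bars for the WT and orange bars for the KO library and a dashed line at equal shares. The orange bar is the shorter in all 9 pairs, and in 4 of them it lies under the line while the blue bar lies above it.

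From a mean FPKM of 0.1, genes that work in the same pathways without being members were at least 2-fold lower about as often as all genes. Of 79 such genes, 75 had a mean FPKM of 0.1 or more, and 11 of these (14.7%) were at least 2-fold lower, beside 13.7% of all genes at that filter. None was at least 2-fold higher, beside 2.8% of all genes. Their median log2 KO/WT was -0.40, beside -0.25 for all genes at that filter. Levels were not matched between these genes and all genes. From a mean FPKM of 1, 8.91% of all genes were at least 2-fold lower. The counts of the single lists below are to be read against the same shares, and with so few genes in a list none stands as a result about it. The list of partners of Ezh2 in Polycomb repressive complex 2 also holds its paralog Ezh1, which is no partner. Of its 10 genes 1 was at least 2-fold lower, the accessory gene Phf19, and the median was -0.48. That count became 0 when ratios were centred on the median of expressed genes. The core subunits Eed, at 10.3 FPKM in WT and 6.98 FPKM in KO, and Suz12, with 10.7 and 6.28, had WT/KO ratios of 1.48 and 1.70, while Ezh2 had 4.56. Rbbp7 was 1.88-fold lower in KO, Aebp2 stood at 10.4 FPKM in WT and 8.05 in KO, and Phf1 was listed higher in KO, at 2.85 FPKM in WT and 3.66 FPKM in KO. Eed, Suz12 and Phf19 were chosen after their values were seen.

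Of 13 measured genes that read, write or remove DNA methylation, 1 was at least 2-fold lower, the methyl-CpG binding gene Mbd1, at 41.0 FPKM in WT and 18.1 FPKM in KO. On centring this count became 0 as well. The median of this list was -0.36. Mbd3 and Mbd2, its other abundant genes, had WT/KO ratios of 1.42 and 1.16, and Tet2, an enzyme that oxidises methylcytosine, was listed higher in KO at 1.19 FPKM in WT and 1.55 FPKM in KO. Dnmt3l was listed at 0 in both libraries. Of 9 genes of lysine 9 methylation and heterochromatin protein 1, 3 were at least 2-fold lower and the median was -0.48. These were Suv39h2 and the heterochromatin protein genes Cbx5, at 15.0 FPKM in WT and 4.85 FPKM in KO, and Cbx3, with 19.1 and 8.98. Trim28 was 1.63-fold lower, Ehmt2 had a WT/KO ratio of 1.14 and Setdb2, whose row also names Gm6907, one of 1.05.

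Of 16 genes on the list of histone chaperones only Hat1, which is itself no chaperone, was at least 2-fold lower in KO. The median was -0.40. Hat1, the acetyltransferase of newly made histone H4, measured 19.5 FPKM in WT and 4.24 FPKM in KO, 4.59-fold lower (95% counting interval 4.14 to 5.09), a ratio inside the range of the members. Hjurp, the chaperone of the centromeric histone, was listed at 48.2 FPKM in WT and 49.6 in KO, but its locus also holds Trpm8, Heatr7b1 and 4930453O03Rik, so that value cannot be assigned to Hjurp. Cabin1, of the HIRA pathway, measured 3.87 FPKM in WT and 4.08 FPKM in KO. Of 10 measured SNF2 remodellers other than Hells none was at least 2-fold lower, and the median was -0.16. Smarca2 measured 23.3 FPKM in WT and 25.2 FPKM in KO, Chd4 had a WT/KO ratio of 1.17 and Smarca5 one of 1.44. On centring, the median of these remodellers became 0.0764. Chd3 was listed higher in KO, at 29.5 FPKM in WT and 53.6 in KO.

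Of 10 variant and linker histone genes other than H2afz, 2 were at least 2-fold lower, and the median was -0.41. Cenpa, the centromeric histone H3 variant, measured 19.2 FPKM in WT and 1.58 FPKM in KO, 12.1-fold lower (95% counting interval 10.0 to 14.7). H1fx, a linker histone, measured 1.49 FPKM in WT and 0.0787 FPKM in KO, the latter about 4.63 fragments, and its locus also holds Rab7 and Gm5577. The replacement histones that are made throughout the cell cycle were less apart, with WT/KO ratios of 1.26 for H3f3b and 0.917 for H1f0 and with H3f3a at 80.5 FPKM in WT and 61.9 in KO, and H2afj measured 15.4 FPKM in WT and 17.8 FPKM in KO. Of 9 measured high mobility group genes other than Hmgb2, 3 were at least 2-fold lower, or 1 on centring, and the median was -0.57. These were Hmga1, at 15.0 FPKM in WT and 4.51 FPKM in KO, Hmgn2, whose row also names Dhdds, with 38.6 and 16.9, and Hmgb3. Hmgn1 was 1.57-fold lower.

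**Figure D5:**
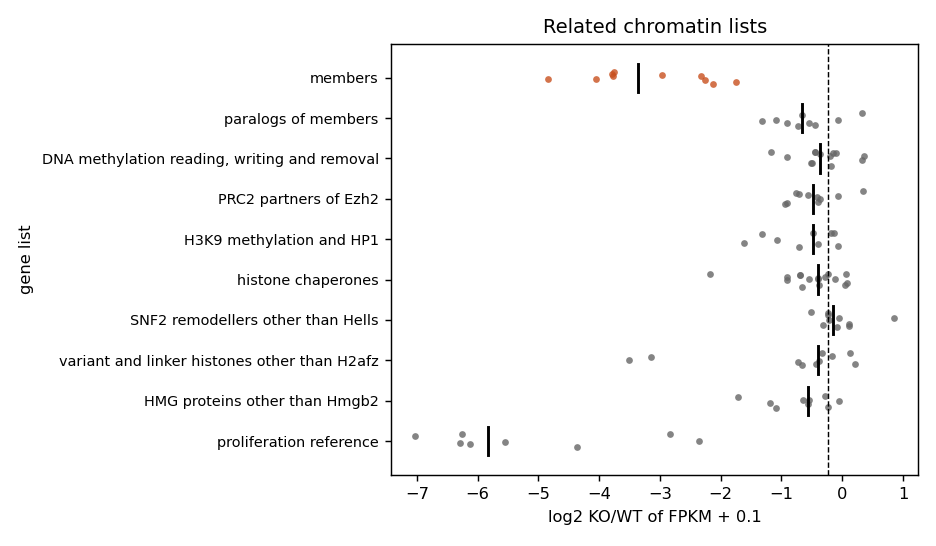
Log2 KO/WT of FPKM + 0.1 for each gene (points) and the median (bars) of the members, 8 related chromatin lists and a proliferation reference, with a dashed line at the median of all genes. The lists share some genes, their medians lie between -0.67 and -0.16, and the members have a median of -3.36 and the reference one of -5.84.

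Genes that mark cycling cells were lower in KO as well, over a wider range than the members. All 8 genes of the proliferation reference were at least 2-fold lower in KO, and their median on the log2 scale was -5.84. Ccnb1 was 360-fold lower, with about 7.76 fragments in KO, Cdk1 was 96.6-fold lower, and Mcm5 was 22.5-fold lower. Mcm2, like Mcm5 a subunit of the replicative helicase, was 7.61-fold lower, which is more than 4 of the 10 members. Pcna, the sliding clamp to which CAF-1, Dnmt1 and Uhrf1 are tethered, measured 66.8 FPKM in WT and 13.0 FPKM in KO and was 5.13-fold lower. That ratio lay near those of H2afz, Suv39h1 and Ezh2, while Mki67, at 246-fold, lay far beyond every member. Mki67 and Mcm2 were chosen after their values were seen.

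Markers of other liver cells were mostly lower in KO as well, on values with no further scaling. So were 75.7% of all genes with a mean FPKM of 1 or more. The counts below are to be read against that share and are no result about a cell type. Sums cover the markers with a mean FPKM of 0.1 or more. The 7 macrophage markers such as Cd5l and Clec4f came to 59.7 FPKM in WT and 37.3 in KO, and 6 of them were lower in KO. The 7 endothelial markers, among them Clec4g and Stab2, summed to 50.3 and 36.4 FPKM with 6 lower, and the 7 stellate cell markers, led by Ecm1 and Reln, to 85.7 and 59.0 with all lower. The stellate marker Col1a1, a collagen gene, was 4.88-fold lower, more than Dnmt1 and Ezh2. Of 9 lymphocyte markers none exceeded 0.340 FPKM in either library, Cd4 and Cd79b being the highest by the mean of both, and 4 of them entered their sum of 0.789 in WT and 0.357 in KO. Of the 8 neutrophil markers 3 entered the sum of 12.9 and 6.91 FPKM, nearly all of it S100a8 and S100a9, with Ly6g, Mpo and Camp at 0 in both libraries. The erythroid markers, led by Hba-a1 and Hbb-b1, summed to 331 and 270 FPKM, and the cholangiocyte markers, led by Spp1 and Sox9, to 29.8 and 25.7. Lower in KO were 6 of the 8 erythroid and 5 of the 6 cholangiocyte markers, with Krt7 and Krt19 3.11-fold and 3.08-fold lower, while the erythroid marker Alas2 was listed higher in KO, at 20.6 FPKM in WT and 37.5 in KO. Col1a1, Krt7, Krt19 and Alas2 were chosen after their values were seen. The largest ratio of such sums was 2.21, for the lymphocyte list, beside 6.09 for the summed members. The 8 hepatocyte markers, led by Serpina1c and Apoa1, had a median log2 KO/WT of 0.06, with 4 lower and 4 higher in KO. They were not all level, as 2 were at least 2-fold lower in KO and 0 at least 2-fold higher. The lower ones were Ass1 and Cps1, with WT/KO ratios of 2.72 and 2.15, also chosen after their values were seen. The part of any of these cell types in the values of the members was not tested.

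Genes around the members had a median log2 KO/WT near the -0.24 of all genes. Within 200 kb of the 10 loci lay 66 other genes with a mean FPKM of 1 or more, a window chosen after values were seen, and their median log2 KO/WT was -0.19. At least 2-fold lower in KO were 3 of these 66, Cyp2c55, Dcaf15 and Rbm3, beside 8.91% of all genes. At least 2-fold higher were 3, Lrg1, Plin4 and Plin5, beside 1.75% of all genes. No neighbour was as low in KO relative to WT as the member beside it. Few genes of the whole set are as low as the members, so this could hardly come out otherwise and says little about the loci. Chaf1a and Uhrf1 lie 228 kb apart on chromosome 17, and the genes near them had medians of 0.08 and 0.25.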

How the data were processed

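Liver RNA of 1 WT and 1 KO library was sequenced, as paired end reads per the labels and single end reads per the methods. The authors aligned reads to NCBI37 (mm9) with TopHat (2.0.0), assembled them with Cufflinks (1.3.0) and deposited Cuffdiff estimates in FPKM for 38016 loci. Quartile scaling and the handling of reads with several places are not given in the sources used here. Deposited columns with the authors' fold change, statistic, p-value and q-value were not used.

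The 21 HIDATA loci were left out and loci of a symbol were summed. A locus naming several symbols gave its value to each and counted once over all genes. Log2 ratios had 0.1 FPKM added to both values, so changes of low genes are understated. Loci were set against GENCODE vM1 (NCBIM37). Depth came from single-exon genes near 1 fragment (100 in WT, 93 in KO) and fragments from the longest annotated transcript, so both are estimates. No coordinate was converted between builds. The tools were matplotlib 3.10.9, scipy 1.17.1, pandas 2.3.3, numpy 2.4.6 and Python 3.11.15. The log2 ratios, their centring and the counting intervals were tested on simulated data, and the other steps were not.

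The members, lists and pairs were chosen with earlier results of these data known. Named genes were the members, their paralogs and Rbbp4, of each list the 3 highest in mean FPKM and those furthest lower and higher, of each marker list the 2 highest, and Ppard. A gene that the rule names is not reported here. Alternatives covered pseudocount, scaling, filters, thresholds, loci and the motif. Protein sequences were not used here, so the planned comparison of protein identity was not made.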

Additional observations from a re-analysis of the deposited data

How the results depend on the processing

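No paired analysis was possible because each genotype has a single library, and none could be left out. Across the alternatives the median log2 KO/WT of the members ranged from -3.51 to -2.27, the latter with 1 FPKM added, and all 10 members were at least 2-fold lower in KO under each scaling and handling of loci, with 9 at a threshold of 4-fold. Without its first T the E2F motif was found in 8 members rather than 5, in 2 paralogs (Uhrf2 and Suv39h2) rather than 0, and in 10.9% of all genes, as a shorter motif matches more often. The median of the SNF2 remodellers, -0.16, became 0.0764 when all ratios were centred on expressed genes and 0.065 with equal upper quartiles, since both scale KO up. The share of all genes at least 2-fold lower was 13.7% from a mean FPKM of 0.1 and 13.1% with no filter. For single members 65 of 83 alternative values moved by less than the counting error and none changed direction, and for pairs 10 of 88 moved by more, also with no change of direction. Of 64 counts of the related lists 12 moved. Under centring and under equal upper quartiles alike the genes at least 2-fold lower went from 1 to 0 for DNA methylation (Mbd1) and for the Ezh2 partners (Phf19), from 3 to 1 for the high mobility group genes and from 2 to 1 for the paralogs. The mean FPKM range from 2 to 10 and the sums with copies were added after the data were seen. Depth limits Asf1b most, with about 22.1 fragments in KO.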
